A study of Arabidopsis thaliana with 8 samples.

Results

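The histone genes described here are 41 genes of Arabidopsis thaliana, picked by gene code from a table of 22281 genes and sorted by the histone they encode. Of these, 27 are replication-type genes (8 for H4, 5 for H3.1, 4 for canonical H2A and 10 for H2B), 11 encode variants (3 H3.3, 2 H2A.X, 3 H2A.W and 3 H2A.Z) and 3 encode the linker histone H1. The choice went by gene family and used no measured value, but earlier results of these data were known when it was made. Transcript levels came from poly-A RNA of 8 libraries in the Col-0 background, 4 of them wild type (replicates 1 to 4) and 4 from lsh1 lsh3 lsh4 mutants (replicates 5 to 8). LSH1, LSH3 and LSH4 belong to the ALOG family of plant-specific nuclear proteins, and the series asks which transcripts differ when the 3 genes are mutated. All plants grew at 20 to 22 °C in days of 16 h light and 8 h dark. Both genotypes were sampled as reproductive tissue rich in inflorescence and floral meristems, with flowers to stage 8. The labels describe neither the mutant alleles nor the number of plants pooled per library. The design text calls the replicates independent but does not state separate plants, and p-values here therefore reflect spread between libraries that could in part be technical.

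Nucleosomes are built from H2A, H2B, H3 and H4 wrapped by DNA, and H1 binds where the DNA enters and leaves them. Replication-type genes are transcribed mainly in S phase, when new chromatin is packaged, and are therefore abundant in meristems, while variant genes are also expressed outside S phase: H3.3 replaces H3.1 at transcribed genes, H2A.Z marks the first nucleosomes of genes, H2A.W marks heterochromatin and H2A.X is phosphorylated at DNA breaks. Plant histone messengers carry poly-A tails, unlike most animal ones, so poly-A enrichment retains them.

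The sequences upstream of the genes differ by family, and some are shown because they hold motifs for which plant histone promoters are known. A window of 250 bases before to 50 bases after each annotated gene start was searched on both strands using RefSeq's annotation (assembly TAIR10.1), where all 41 genes were found. The histone octamer CGCGGATC was present in 10 of the 41 windows and in 40 of all 27443 windows of the same length (0.146%). It occurred in 2 of 8 H4, 3 of 5 H3.1, 1 of 3 H3.3, 2 of 4 canonical H2A, 1 of 3 H2A.W and 1 of 3 H1 genes, and in 0 of 10 H2B genes. The following 150 bases end at the base before the annotated start, read 5′ to 3′ on the strand of the gene, with the octamer or its reverse complement in capitals. They lie at chr5:24051324-24051473 (H4, plus strand), chr1:2972335-2972484 and chr5:26120582-26120731 (H3.1, both minus strand), chr4:18558946-18559095 (H3.3, minus strand), chr1:18926661-18926810 (canonical H2A, plus strand), chr5:24116221-24116370 (H2A.W, minus strand) and chr1:2077768-2077917 (H1, minus strand).
AT5G59690: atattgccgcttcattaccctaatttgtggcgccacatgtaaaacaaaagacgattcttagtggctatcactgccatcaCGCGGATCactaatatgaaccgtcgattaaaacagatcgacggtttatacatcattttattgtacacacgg
AT1G09200: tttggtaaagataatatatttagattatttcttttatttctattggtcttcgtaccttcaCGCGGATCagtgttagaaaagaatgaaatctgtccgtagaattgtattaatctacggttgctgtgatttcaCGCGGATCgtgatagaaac
AT5G65360: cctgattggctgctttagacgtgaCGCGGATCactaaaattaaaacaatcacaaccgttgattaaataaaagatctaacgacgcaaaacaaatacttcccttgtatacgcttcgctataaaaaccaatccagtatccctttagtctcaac
AT4G40040: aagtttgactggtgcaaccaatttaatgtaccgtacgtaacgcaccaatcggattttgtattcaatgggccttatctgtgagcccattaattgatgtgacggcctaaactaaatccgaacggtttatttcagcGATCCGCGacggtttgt
HTA10: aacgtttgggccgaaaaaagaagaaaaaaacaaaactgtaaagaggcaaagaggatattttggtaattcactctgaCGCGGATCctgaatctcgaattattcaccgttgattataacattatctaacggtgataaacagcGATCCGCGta
HTA6: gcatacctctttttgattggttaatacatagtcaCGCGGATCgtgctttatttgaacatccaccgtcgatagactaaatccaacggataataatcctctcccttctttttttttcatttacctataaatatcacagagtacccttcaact
AT1G06760: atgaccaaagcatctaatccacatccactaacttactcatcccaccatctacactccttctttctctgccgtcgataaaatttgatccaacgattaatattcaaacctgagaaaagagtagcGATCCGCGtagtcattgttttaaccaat
AT1G09200 and HTA10 each hold 2 copies. The copy in the H3.3 gene AT4G40040 and that in the H1 gene AT1G06760 are in reverse orientation and start at positions -17 and -28 from the annotated start, whereas those of AT5G59690 and AT5G65360 are in forward orientation at -71 and -126.

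The H2B genes carried the hexamer ACGTCA instead. It was found in 9 of 10 H2B windows and in 13 of all 41, against 2522 of 27443 windows (9.19%). The regions of HTB1, HTB11 and AT3G53650 are shown, with the hexamer in capitals, as examples in which it falls within the 150 bases. In the 3 most abundant H2B genes it does not: it lies at -195 and 2 in HTB2, -156 in HTB9 and 40 in HTB4. The regions shown lie at chr1:2412788-2412937 (HTB1, plus strand), chr3:16914132-16914281 (HTB11, minus strand) and chr3:19889147-19889296 (AT3G53650, plus strand).
HTB1: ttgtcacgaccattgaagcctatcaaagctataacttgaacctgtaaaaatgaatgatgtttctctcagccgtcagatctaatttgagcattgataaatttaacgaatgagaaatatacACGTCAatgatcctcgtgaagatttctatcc
HTB11: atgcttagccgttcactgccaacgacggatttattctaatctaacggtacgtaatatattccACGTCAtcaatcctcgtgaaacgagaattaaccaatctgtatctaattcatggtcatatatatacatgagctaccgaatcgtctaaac
AT3G53650: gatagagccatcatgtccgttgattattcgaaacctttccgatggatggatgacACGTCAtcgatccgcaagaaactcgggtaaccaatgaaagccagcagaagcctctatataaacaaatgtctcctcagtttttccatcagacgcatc
For E2F factors, which drive entry into S phase, only 2 exact strings were searched, and other forms of their site were not. TTTCCCGC was in 0 of 41 windows (219 of all windows, 0.798%). TTTGGCGC was in 2, those of the H4 genes AT3G45930 and AT3G46320, both at position -237 (119 of all windows, 0.434%). The 150 bases before the starts of these 2 genes are nearly identical, so the 2 matches may not be separate occurrences. None of these 4 motifs contains another, and a match is a string in a window and no measurement of binding.

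The region upstream of the H1 gene HIS1-3 is shown because this gene had the largest difference between genotypes among the 41. It held none of the 4 motifs and lies at chr2:7845773-7845922 on the plus strand.
HIS1-3: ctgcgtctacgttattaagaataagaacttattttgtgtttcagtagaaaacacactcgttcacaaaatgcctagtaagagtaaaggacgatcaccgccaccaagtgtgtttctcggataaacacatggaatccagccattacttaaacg

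**Figure D1:**
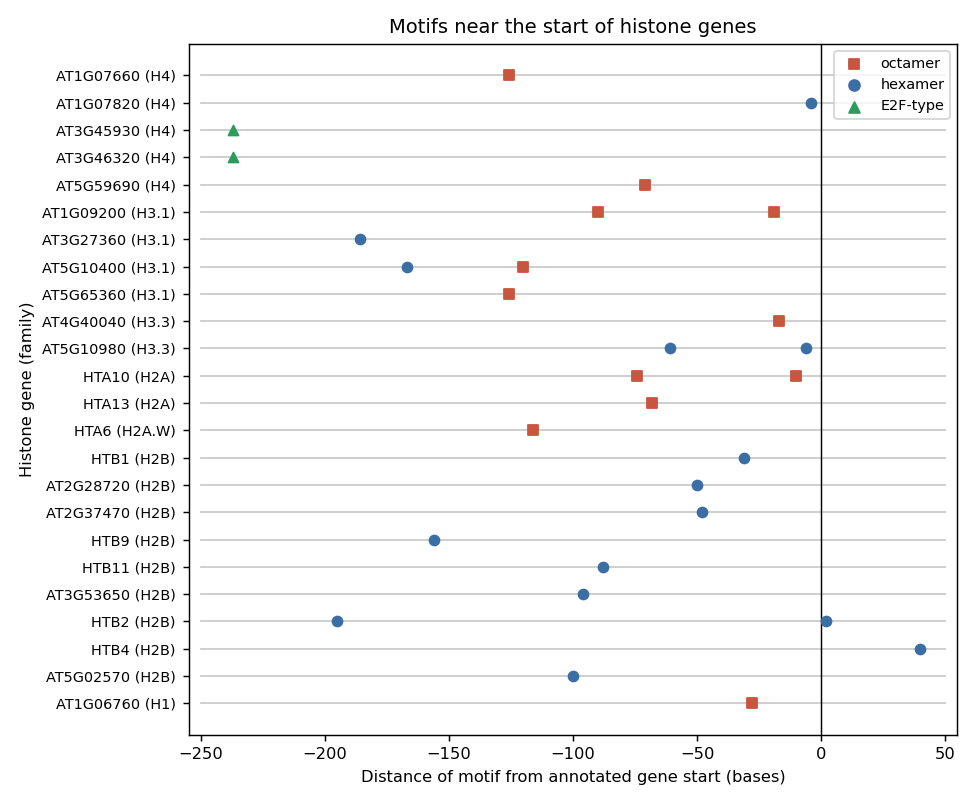
Distance in bases of each motif from the annotated gene start, for the 24 histone genes with at least 1 match, with octamer (squares), hexamer (circles) and E2F-type site (triangles). Octamers lie between -126 and -10 bases, and all but 1 of the H2B genes appear with a hexamer.

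The coding sequences say how far the copies differ. All 8 H4 genes encode 1 identical protein, as do the 5 H3.1 genes, and the H3.3 genes AT4G40040 and AT5G10980 share another. Only the longest annotated coding sequence of each gene was compared. That of the H3.3 gene AT4G40030 has 495 bases against 411 in the other H3.3 genes, so whether it also encodes their protein was not tested. Coding sequences of the H4 and H3.1 copies differed, with a median identity between pairs of 82.4% in H4 and 84.6% in H3.1. The highest identity was 98.1%, for AT1G07660 with AT1G07820. Whether reads of such copies were assigned to the right gene was not tested. The strongest H3.1 gene, AT5G65360, and the strongest H3.3 gene, AT4G40040, differ at 101 of 411 coding bases. In 4 codons the residue changes, and 78 others are synonymous. The residues that differ are 31, 41, 87 and 90, counted after the initiator methionine. Codons 79 to 91 are shown 5′ to 3′ because they hold the last pair, with the 2 codons that change the residue in capitals.
AT5G65360: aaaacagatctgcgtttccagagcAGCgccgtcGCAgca
AT4G40040: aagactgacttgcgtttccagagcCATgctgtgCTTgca
No other pair of H3.1 and H3.3 genes was compared in this way. Along the annotated transcripts, 0% of the windows of 100 bases of each H3.3 gene also occurred in another gene. The share of H3.3 given further on rests on these copies.

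For some members reads could be shared with other genes, and the labels do not say whether counting used strand. Among windows of 100 bases along the annotated transcripts, 31.2% of AT3G27360 (H3.1), 42.9% of GAMMA-H2AX, 31.7% of HTA12 (H2A.W), 23.9% of HTB9, 36.3% of AT1G06760 (H1) and 100% of AT5G02570 (H2B) also occur in an overlapping gene. HTA12 and AT5G02570 overlap each other on opposite strands. The H4 pairs AT1G07660 with AT1G07820 and AT3G45930 with AT3G46320 share 4.32 to 12.1% of windows. These percentages count identical stretches of annotated transcripts. How far sharing of reads altered the values of these genes was not tested.

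Before the histone genes, the mutated genes were read as a check of the labels. LSH4 averaged 22.1 ± 2.08 FPKM in wild-type and 5.51 ± 1.42 in mutant libraries (mean ± SD, n = 4 each; limma adjusted p = 0.00773), and LSH1 had 10.1 ± 1.96 and 2.87 ± 0.967 (limma adjusted p = 0.0423). LSH3 did not pass the test (17.2 ± 5.28 and 13.5 ± 2.35 FPKM, limma adjusted p = 0.607). The call of LSH4 was lost without wild-type replicate 2 (limma adjusted p = 0.0626), and that of LSH1 on leaving out any library other than wild-type replicate 3 or mutant replicate 8. Read totals were unknown, and the FPKM sums ran from 826022 to 906962. Genes listed at 0 numbered 1233 to 1884 in 7 libraries and 2461 in mutant replicate 8. Spearman correlations between libraries, taken over genes that are no independent replicates, were 0.940 to 0.989 within a genotype and 0.917 to 0.987 across. Meristem and young flower genes were detected in every library (summed FPKM of 8 genes 151 to 424). Of 9 genes known from anthers past stage 8, 7 were in the expression table. Only LAP6 reached a mean of 1 FPKM, with 9.41 ± 1.73 in wild-type and 10.2 ± 1.07 in mutant libraries.

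Histone transcripts were abundant in both genotypes, and the gene copies of a family contributed unequally. FPKM scales fragments by gene length and library total, so levels of different genes can be set side by side. In wild type 33 of the 41 genes had a mean above 100 FPKM, a level reached by 8.56% of the 17706 genes tested, whose median was 17.7 FPKM. Together the 41 genes made up 1.27 ± 0.155% of all FPKM in wild-type libraries and 1.21 ± 0.188% in the mutant (SD, n = 4 each), which overlap. The highest wild-type means were 746 ± 114 FPKM for HTB2 (H2B), 683 ± 71.5 for AT5G59690 (H4), 582 ± 76.7 for HTB9 (H2B), 547 ± 93.2 for AT5G65360 (H3.1) and 513 ± 44.5 for HTB4 (H2B). The means of HTB2 and AT5G59690 differ by less than either SD, as do those of HTB9, AT5G65360 and HTB4 from one to the next, whereas AT5G59690 and HTB9 differ by more. AT4G40040 (H3.3, 508 ± 51.9) and HTA6 (H2A.W, 415 ± 51.7) led their families, as did HTA9 (H2A.Z, 375 ± 29.5), AT1G06760 (H1, 357 ± 31.6), HTA10 (canonical H2A, 350.0 ± 33.8) and H2AXA (H2A.X, 154 ± 16.2).

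The copies within a family were unequal. The strongest gene exceeded the weakest 5.09-fold in H4, 4.04-fold in H3.1, 1.61-fold in H3.3, 6.99-fold in canonical H2A and 37.3-fold in H2A.W. Of the 8 H4 genes, which encode 1 protein, AT5G59690 supplied 28.3 ± 0.945% of H4 FPKM in wild-type libraries and 27.0 ± 0.399% in the mutant. AT5G65360 supplied 32.95 ± 1.73% and 32.0 ± 1.01% of H3.1, and HTB2 28.5 ± 1.44% and 27.9 ± 1.07% of H2B. These shares overlapped between genotypes. The 5 genes with wild-type means under 15 FPKM were the H2B genes AT2G28720 (11.3 ± 1.22), AT3G09480 (10.4 ± 2.17) and AT5G02570 (1.57 ± 0.454), HTA12 of the H2A.W group (11.1 ± 1.79) and HIS1-3 of the H1 group (3.83 ± 3.09).

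**Figure D2:**
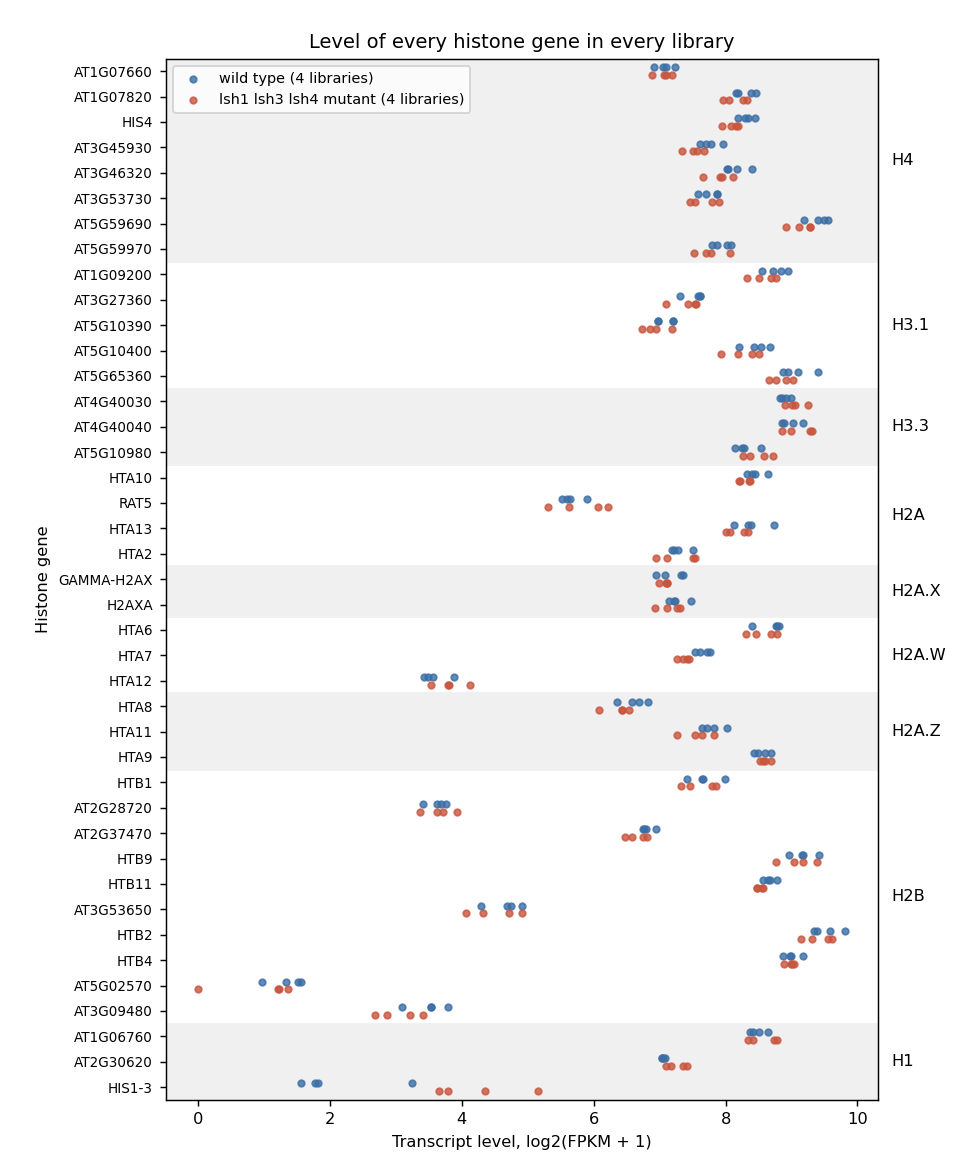
Transcript level, log2(FPKM + 1), of each of the 41 histone genes (vertical axis, grouped by family) in the 4 wild-type and 4 mutant libraries, 1 point per library. Most genes lie between 6 and 10 with overlapping genotypes, and HIS1-3 at the bottom is the gene with the widest gap.

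No histone gene passed the test over all genes between mutant and wild type, whereas with array weights, which let libraries count unequally, 1 was called higher and 8 lower. All 41 had a mean of at least 1 FPKM and were tested with limma on log2(FPKM + 1), and 0 were called higher and 0 lower at a Benjamini-Hochberg adjusted p under 0.05, where 0.136% of the 17706 genes tested were called higher and 0.0508% lower. Before adjustment, 2 had p under 0.05 with a higher level and 4 with a lower one (6.91% and 5.62% of all genes tested). In 2 genes every mutant library lay above every wild-type library and in 3 below (4.15% and 3.74% of all genes tested, 7.89% in either direction). The authors' deposited table of differential genes, deposited with the same libraries, lists 2 of the 41 (3.69% of the genes in the expression table): HIS1-3 and HTA7. The 8 called lower with array weights were the H4 genes AT1G07820, HIS4, AT3G45930 and AT5G59690, the H3.1 genes AT1G09200 and AT5G65360, HTA7 (H2A.W) and HTA11 (H2A.Z), with limma adjusted p values of 0.0239 to 0.0499, and the 1 called higher was HIS1-3 (limma adjusted p = 0.00792). Under those weights 1265 of the 17706 genes tested were called higher and 1058 lower. Wild-type replicate 2 had a weight of 4.55 and mutant replicate 7 one of 4.38, the others 0.29 to 0.96. The calls with array weights thus lean on 1 library of each genotype. In bulk tissue, fewer cells of a type and less RNA per cell cannot be told apart.

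The log2 fold changes had negative medians in replication-type genes and in variants and a positive one in H1, and differences between these classes were not tested. The log2 fold change was negative in 25 of 27 replication-type genes (median -0.16), in 6 of 11 variants (median -0.10) and in 0 of 3 H1 genes (median 0.21), beside 52.4% of all genes tested, whose median was -0.0094. Of the 25, 2 were positive under TPM rescaling and 2 under quantile scaling. Since the genes varied together across libraries, as described further on, their signs are not separate observations. Leaving out 1 library at a time gave medians from -0.20 to -0.094 for replication-type genes, -0.11 to -0.039 for variants and 0.16 to 0.26 for H1. The value nearest 0 came without mutant replicate 6 for both core classes, and the median of variants was -0.042 when wild-type replicate 3 was left out and -0.044 when replicate 4 was. With array weights the medians were -0.25 for replication-type genes, -0.023 for variants and 0.12 for H1, and variants had -0.065 under quantile scaling.

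**Figure D3:**
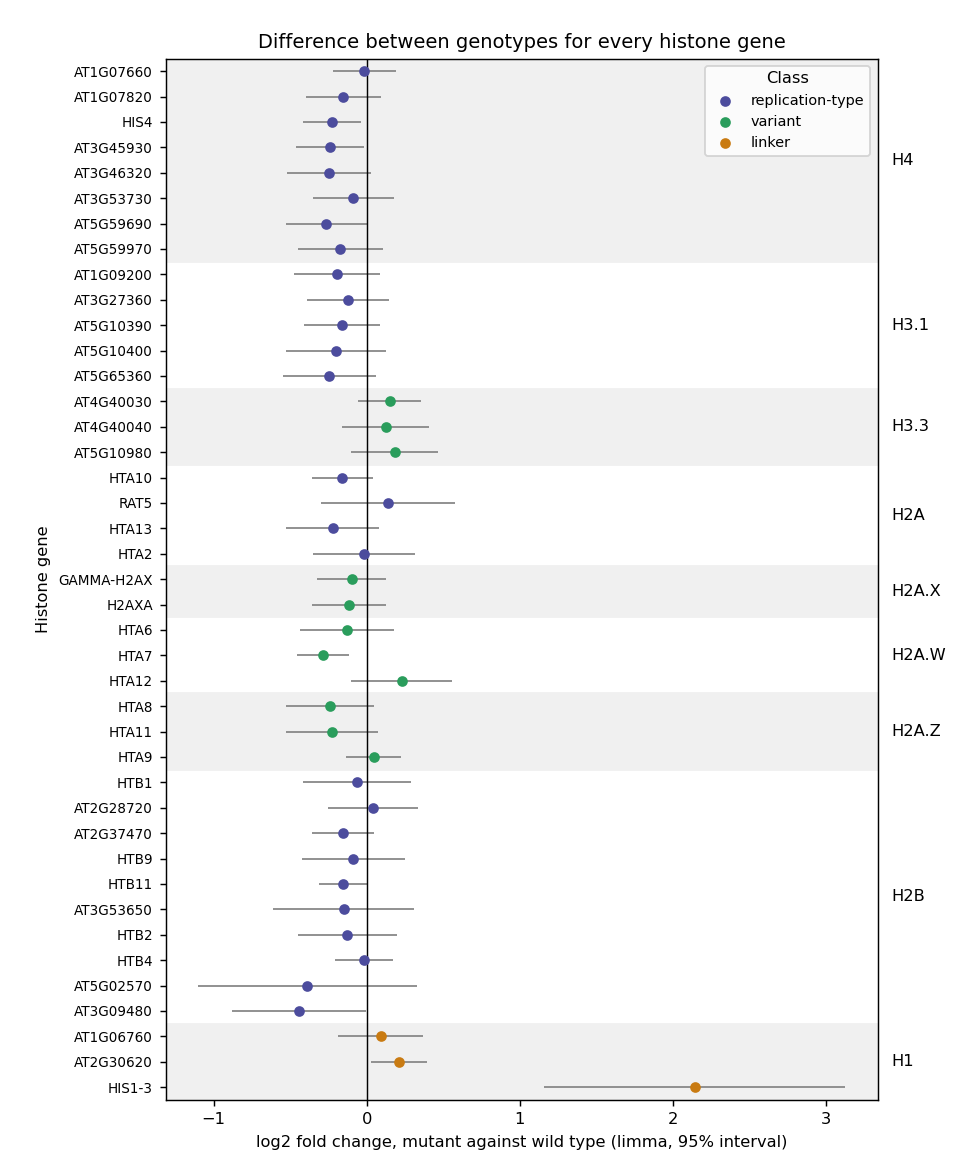
Log2 fold change, mutant over wild type (horizontal axis), with its 95% interval from limma for each of the 41 histone genes, coloured by class. All H4 and H3.1 points lie left of 0, AT1G07660 crossing it under TPM rescaling or quantile scaling, and all H3.3 and H1 points lie right of it; most intervals include 0.

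Among replication-type genes, H4 and H3.1 were the most even. All 8 H4 genes had a negative log2 fold change (median -0.20), with AT1G07660 (-0.017) above 0 under TPM rescaling or quantile scaling. AT5G59690, the strongest H4 gene, measured 677, 720.3, 585 and 749 FPKM in wild-type replicates 1 to 4 and 623, 481, 550.2 and 623 FPKM in mutant replicates 5 to 8 (log2 fold change -0.26, SE 0.12, 95% interval -0.53 to 0.0021, limma with Benjamini-Hochberg adjusted p = 0.403). The lowest wild-type library lies below 2 of the mutant libraries, so the genotypes overlap. HIS4 (AT2G28740), the H4 gene with the smallest p, measured 314, 323, 291 and 349 FPKM in wild-type replicates 1 to 4 and 284, 246, 269.9 and 290.2 FPKM in mutant replicates 5 to 8 (log2 fold change -0.23, SE 0.083, 95% interval -0.42 to -0.036, limma with Benjamini-Hochberg adjusted p = 0.324). Every mutant library is below every wild-type library, by a narrow margin between wild-type replicate 3 and mutant replicate 8. The other 6 H4 genes had log2 fold changes from -0.25 to -0.017, all with overlapping genotypes.

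All 5 H3.1 genes, which supply the H3 laid down behind the replication fork, had negative values (median -0.19, range -0.24 to -0.12). AT5G65360, the strongest and the one with the smallest p, measured 495, 549, 468 and 678 FPKM in wild-type replicates 1 to 4 and 481, 403, 435 and 519 FPKM in mutant replicates 5 to 8 (log2 fold change -0.24, SE 0.13, 95% interval -0.55 to 0.058, limma with Benjamini-Hochberg adjusted p = 0.486). Wild-type replicate 4 stands highest and mutant replicate 6 lowest, and the other 6 libraries interleave.

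Canonical H2A and H2B showed the same lean with more scatter. Of the 4 canonical H2A genes 3 were negative, with HTA2 (-0.021) positive under quantile scaling. HTA13 had -0.22, and RAT5, first known from plants resistant to Agrobacterium transformation, was positive (0.14). HTA10, which led the group in level and in p, measured 336, 346, 319.9 and 398 FPKM in wild-type replicates 1 to 4 and 331, 294, 297 and 327 FPKM in mutant replicates 5 to 8 (log2 fold change -0.16, SE 0.088, 95% interval -0.36 to 0.038, limma with Benjamini-Hochberg adjusted p = 0.484). The mutants lie at the low end, and the genotypes overlap. Of the 10 H2B genes 9 were negative (median -0.14), with HTB4 (-0.020) just above 0 under TPM rescaling.

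HTB2, the strongest H2B gene and the most abundant of all 41, measured 668, 768, 649 and 898 FPKM in wild-type replicates 1 to 4 and 747, 566, 636 and 782 FPKM in mutant replicates 5 to 8 (log2 fold change -0.13, SE 0.14, 95% interval -0.45 to 0.20, limma with Benjamini-Hochberg adjusted p = 0.743). Of the mutant values, 2 fall inside the wild-type range and 2 below it. AT3G09480, a weak H2B gene with the smallest p of its family, measured 10.6, 7.51, 10.5 and 12.8 FPKM in wild-type replicates 1 to 4 and 9.60, 5.44, 6.31 and 8.26 FPKM in mutant replicates 5 to 8 (log2 fold change -0.44, SE 0.19, 95% interval -0.88 to -0.0022, limma with Benjamini-Hochberg adjusted p = 0.396). The genotypes overlap, and at this level the log2(FPKM + 1) scale understates the change. HTB11 was the 1 H2B gene whose genotypes did not overlap, at 379.6, 399, 407 and 440.3 FPKM in wild-type and 376, 355, 376 and 354 in mutant libraries (log2 fold change -0.15, limma adjusted p = 0.426), with a narrow margin between the groups. The other 7 H2B genes had log2 fold changes from -0.39 for AT5G02570, which was listed at 0 in mutant replicate 8, to 0.038 for AT2G28720.

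Variant genes split by type. The 3 H3.3 genes, whose product is deposited outside replication, all had positive values (median 0.15), also when any 1 library was left out. AT4G40040, the strongest, measured 474, 519, 463 and 577 FPKM in wild-type replicates 1 to 4 and 620.2, 463, 507 and 635 FPKM in mutant replicates 5 to 8 (log2 fold change 0.12, SE 0.13, 95% interval -0.16 to 0.41, limma with Benjamini-Hochberg adjusted p = 0.717). Mutant replicates 5 and 8 are high and mutant replicates 6 and 7 lie among the wild types. AT4G40030, with the smallest p of the group, measured 463, 482, 454 and 510.2 FPKM in wild-type replicates 1 to 4 and 528, 479, 513 and 605 FPKM in mutant replicates 5 to 8 (log2 fold change 0.15, SE 0.090, 95% interval -0.056 to 0.35, limma with Benjamini-Hochberg adjusted p = 0.526). It lies next to AT4G40040 on chromosome 4 and likewise overlapped between genotypes. AT5G10980 gave a log2 fold change of 0.18 (limma adjusted p = 0.573).

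Set against H3.1 in the same library, H3.3 separated the genotypes. The 5 H3.1 genes summed to 1574, 1714, 1418 and 1917 FPKM in wild-type replicates 1 to 4 and 1553, 1207, 1381 and 1621 in mutant replicates 5 to 8. The 3 H3.3 genes summed to 1218, 1311, 1220.3 and 1457 and 1530.0, 1247, 1349 and 1659 FPKM. Each sum overlaps between genotypes. The share of H3.3 in all H3 FPKM was 43.6, 43.3, 46.2 and 43.2% in wild type and 49.6, 50.8, 49.4 and 50.6% in the mutant (44.1 ± 1.45% and 50.1 ± 0.687%, SD, n = 4 each). Every mutant library lies above every wild-type library, and wild-type replicate 3 stands nearest to the mutants. The share is a description without a test, since it sums genes chosen as members.

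Markers of other tissue also differed between the libraries. The 8 green tissue genes, of light harvesting and carbon fixation, had positive log2 fold changes in 8 of 8 (median 0.42), where 52.4% of all genes tested were negative. Of the 8, 0 were called and 5 were higher with an unadjusted p under 0.05 (6.91% of all genes tested). The 8 green tissue genes summed to 9922, 7364, 12247 and 7535 FPKM in wild-type replicates 1 to 4 and 10569, 13866, 10814 and 12160.0 in mutant replicates 5 to 8. Wild-type replicate 3 was thus the highest of its genotype in both this sum and the H3.3 share. Its sum also exceeded those of mutant replicates 5, 7 and 8, whereas its H3.3 share (46.2%) lay below that of every mutant library. The 6 meristem and young flower genes tested were negative in 6 of 6 (median -0.20, 0 called), and their list, with WUS and CLV3 under a mean of 1 FPKM, summed to 222, 289.7, 269 and 424 and 268, 151, 193 and 374 FPKM. The smallest p values there were those of STM, a homeobox gene of the shoot meristem (log2 fold change -0.37, limma adjusted p = 0.145), and AP1, a floral meristem identity gene (-0.56, limma adjusted p = 0.499). The authors' deposited table lists STM (adjusted p = 0.00745) and none of the green tissue genes. The part of these markers in the H3.3 share was not tested.

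**Figure D4:**
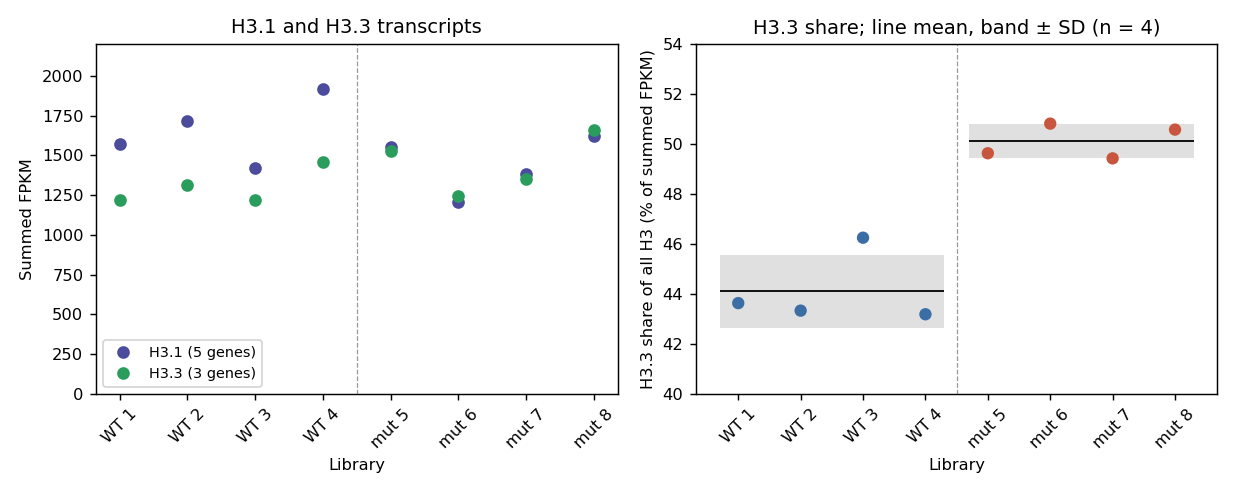
Left, summed FPKM of the 5 H3.1 and the 3 H3.3 genes in each library; right, the share of H3.3 in all H3 FPKM on an axis that starts at 40%, with the mean as a line and ± SD as a band (n = 4). H3.1 exceeds H3.3 in each wild-type library and the sums are nearly equal in the mutants, with shares of 43.2 to 46.2% against 49.4 to 50.8%.

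The H2A variants showed no such separation in their shares. HTA7, an H2A.W gene, had the smallest p of the core histone genes. It measured 216, 194, 185 and 209 FPKM in wild-type replicates 1 to 4 and 173, 153, 169.5 and 163 FPKM in mutant replicates 5 to 8 (log2 fold change -0.29, SE 0.074, 95% interval -0.45 to -0.12, limma with Benjamini-Hochberg adjusted p = 0.177). Every mutant library is below every wild-type library. The authors' deposited table lists HTA7 with a log2 fold change of -0.29 and an adjusted p of 0.0201. The strongest H2A.W gene, HTA6, averaged 415 ± 51.7 and 379.7 ± 56.4 FPKM with overlapping genotypes (log2 fold change -0.13, limma adjusted p = 0.717), and the weak HTA12 was positive (0.23).

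For H2A.Z, the strongest gene HTA9 measured 358, 385, 346 and 412 FPKM in wild-type replicates 1 to 4 and 379.7, 368, 385 and 413 FPKM in mutant replicates 5 to 8 (log2 fold change 0.045, SE 0.080, 95% interval -0.14 to 0.23, limma with Benjamini-Hochberg adjusted p = 0.844). The libraries interleave. HTA8, with the smallest p of the group, had 97.1 ± 13.2 and 82.0 ± 10.6 FPKM and overlapped (log2 fold change -0.24, limma adjusted p = 0.472), and HTA11 gave a log2 fold change of -0.23 (limma adjusted p = 0.506). For H2A.X, H2AXA measured 147, 149, 141 and 177 FPKM in wild-type replicates 1 to 4 and 153, 120.4, 137 and 157 FPKM in mutant replicates 5 to 8 (log2 fold change -0.11, SE 0.11, 95% interval -0.36 to 0.13, limma with Benjamini-Hochberg adjusted p = 0.688), also interleaved, and GAMMA-H2AX gave a log2 fold change of -0.10 (limma adjusted p = 0.705). The share of H2A.Z in all H2A FPKM was 27.6 ± 0.599% in wild type and 28.6 ± 1.11% in the mutant, that of H2A.W 24.9 ± 1.65% and 24.1 ± 0.760%, and that of H2A.X lay between 10.98 and 13.4% in wild type and between 11.3 and 12.6% in the mutant. All of these shares overlapped between genotypes.

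The linker histone gene HIS1-3 (AT2G18050) differed most. It encodes a short H1 known to be induced by drought, abscisic acid and low light, and its coding sequence of 504 bases compares with 825 and 822 bases for AT1G06760 and AT2G30620. HIS1-3 measured 2.52, 2.42, 8.45 and 1.95 FPKM in wild-type replicates 1 to 4 and 19.4, 12.9, 11.6 and 34.5 FPKM in mutant replicates 5 to 8. Every mutant library lies above every wild-type library, and wild-type replicate 3 stands apart from the other wild types. The mutant mean was 5.11 times the wild-type mean (log2 fold change 2.14, SE 0.43, 95% interval 1.16 to 3.12, limma with Benjamini-Hochberg adjusted p = 0.108). The gene did not pass over all genes, although its interval excludes 0. It passed without wild-type replicate 3 (log2 fold change 2.52, limma adjusted p = 0.0366), and leaving out the other libraries gave adjusted p values up to 0.315. The authors' deposited table lists it with a log2 fold change of 2.36 and an adjusted p of 0.000308.

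HIS1-3 remained a small part of H1 messenger. Its share of H1 FPKM was 0.534, 0.490, 1.80 and 0.363% in wild-type replicates 1 to 4 and 3.20, 2.69, 2.38 and 5.35% in mutant replicates 5 to 8. The genotypes do not overlap in this share. AT1G06760, the main H1 gene, measured 339, 361, 329 and 399.9 FPKM in wild-type replicates 1 to 4 and 427, 323, 341 and 440.3 FPKM in mutant replicates 5 to 8 (log2 fold change 0.090, SE 0.12, 95% interval -0.19 to 0.37, limma with Benjamini-Hochberg adjusted p = 0.788). These libraries interleave, and array weights turn the value negative (-0.038). AT2G30620, the second H1 gene, measured 131, 129.5, 132 and 135 FPKM in wild-type replicates 1 to 4 and 162, 144, 136 and 170.2 FPKM in mutant replicates 5 to 8 (log2 fold change 0.21, SE 0.080, 95% interval 0.027 to 0.39, limma with Benjamini-Hochberg adjusted p = 0.345). It was the other histone gene whose mutant libraries all lay above the wild types, by a narrow margin between wild-type replicate 4 and mutant replicate 7. AT1G06760 and AT2G30620 overlap other genes on the opposite strand, and HIS1-3 overlaps none.

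The touch and handling genes, which respond to mechanical stimulation and cold, were negative in 8 of 8 tested (median -1.78), beside 52.4% of all genes tested. Of the 8, 0 were called and 5 were lower with an unadjusted p under 0.05 (5.62% of all genes tested). The touch and handling list summed to 1415, 637, 287 and 123 FPKM in wild-type replicates 1 to 4 and 179, 198, 164 and 82.9 in mutant replicates 5 to 8. The smallest p values were those of CBF2, a cold-response factor gene (-1.87, limma adjusted p = 0.151), and ZAT12, a stress zinc-finger gene (-2.68, limma adjusted p = 0.152). The authors' deposited table lists 5 of the touch genes, beside 3.69% of the genes in the expression table. Among the 5 listed were CBF2 (adjusted p = 1.12e-06) and ZAT12 (adjusted p = 0.000746). Within wild type, HIS1-3 was highest in replicate 3, as was the summed level of the green tissue genes (12247 FPKM), while the touch genes were highest in replicate 1. The part of either list in the HIS1-3 difference was not tested.

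**Figure D5:**
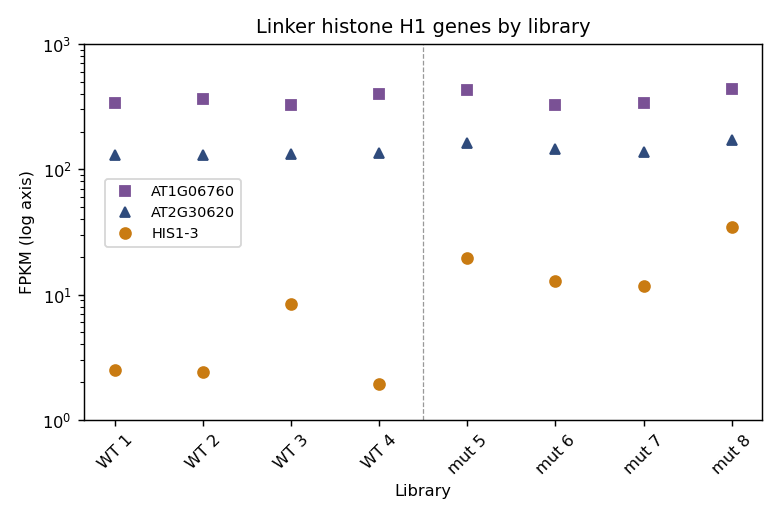
FPKM on a log axis of the 3 linker histone genes in each library. HIS1-3 lies between 1.95 and 8.45 in wild type and between 11.6 and 34.5 in the mutant, while AT1G06760 and AT2G30620 stay above 100 FPKM in all 8 libraries.

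Histone genes varied together from library to library. Wild-type replicate 4 gave the highest value in 19 of the 27 replication-type genes and mutant replicate 6 the lowest in 24. Against the mean of its genotype, the median replication-type gene stood 0.18 higher in wild-type replicate 4 and 0.23 lower in mutant replicate 6 on the log2 scale, and 0.14 and 0.17 higher in mutant replicates 5 and 8. These deviations are of the size of the median difference between genotypes of -0.16. Variant genes followed with 0.19 higher in wild-type replicate 4 and 0.23 lower in mutant replicate 6. Wild-type replicate 4 and mutant replicate 6 also held the highest and the lowest summed level of the meristem and young flower genes (424 and 151 FPKM), and mutant replicate 6 the highest of the green tissue genes (13866 FPKM). Their part in this pattern was not tested.

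Pairs of other genes were not examined, so whether histone genes varied together more than others was not tested. After centring each genotype, the median Pearson r over the 820 pairs of histone genes was 0.78 across the 8 libraries, in each of which all genes share depth and tissue makeup. It was 0.81 within replication-type genes, 0.87 within H4, 0.84 within H3.1, 0.91 within H3.3 and 0.61 within H2B. H3.1 with H3.3 genes gave 0.85, so they varied together within a genotype. The closest pairs were AT4G40040 (H3.3) with AT1G06760 (H1) at 0.993, HTA2 (canonical H2A) with AT1G06760 at 0.991 and AT5G10980 (H3.3) with HTB1 (H2B) at 0.985. AT5G02570, the weakest H2B gene, had the lowest median r with the others (-0.36), followed by HIS1-3 (0.057) and GAMMA-H2AX (0.097).

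Some histone genes are neighbours. The H3.3 genes AT4G40030 and AT4G40040 are 42 bases apart on 1 strand, and the H3.1 genes AT5G10390 and AT5G10400 are 577 bases apart, with no gene between. Several H2B genes lie within a few genes of an H4 gene, such as AT2G28720 and HIS4 with 1 gene between and HTB1 and AT1G07820 with 2. AT2G28720 had 11.3 ± 1.22 FPKM in wild type beside 319 ± 23.8 for its neighbour HIS4.

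Genes that work with histones showed similarly small differences, and none passed the test. Of 20 genes for histone chaperones and deposition, 17 were negative (median -0.057), beside 52.4% of all genes tested. A lower level with an unadjusted p under 0.05 was found in 3 (5.62% of all genes tested). The leading genes were NRP2, for an H2A-H2B chaperone (73.4 ± 4.87 and 63.5 ± 2.103 FPKM, log2 fold change -0.21, limma adjusted p = 0.252), and ASF1B, for an H3-H4 chaperone (29.2 ± 3.23 and 24.2 ± 1.34 FPKM, log2 fold change -0.26, limma adjusted p = 0.276). In both, the mutant libraries were all lower than the wild types. Of 20 S phase and replication genes 17 were negative (median -0.14), led by RNR1, for a ribonucleotide reductase subunit (-0.20, limma adjusted p = 0.432), and PCNA1, for the sliding clamp (-0.30, limma adjusted p = 0.438).

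Of 10 genes for E2F factors, the retinoblastoma protein and D-type cyclins, which govern S phase entry, 6 were negative (median -0.013). Their smallest p values were those of DEL1, an atypical E2F gene (-0.22, limma adjusted p = 0.474), and CYCD3;1, a D-type cyclin gene (0.21, limma adjusted p = 0.527). All 14 G2 and mitosis genes were negative (median -0.18), with 5 lower at an unadjusted p under 0.05 (5.62% of all genes tested). They were led by the mitotic kinase genes CDKB2;2 (-0.30, limma adjusted p = 0.149) and CDKB2;1 (-0.28, limma adjusted p = 0.210), and the authors' deposited table lists CDKB2;2 with an adjusted p of 0.0143. Of 8 other histone genes outside the 41, 2 reached 1 FPKM: HTR12, for the centromeric H3 (-0.24, limma adjusted p = 0.605), and HTR11, for an H3.1-like protein (-0.28, limma adjusted p = 0.660). The medians of the S phase and mitosis lists are close to that of the replication-type histone genes, a description over lists that share the same 8 libraries.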

How the data were processed

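Poly-A RNA of 4 wild-type and 4 lsh1 lsh3 lsh4 mutant libraries was compared, with groups and replicate numbers from the sample titles. Expression values are FPKM as the authors deposited them, 1 for each gene in each library. RSEM, DESeq2 and build TAIR10 are named, per the submitters' processing notes; their versions, the aligner and the annotation are not given in the sources consulted. Of the per-library columns, 0 were left unassigned. The authors' deposited differential table holds, per the file headers, log2 fold changes with raw and adjusted p-values. It lists 822 genes, and its largest adjusted p is 0.0499.

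The members and lists were chosen with earlier results of these data known. Since the values are FPKM, no count model was fitted: the fit used limma 3.58.1 (R 4.3.3) on log2(FPKM + 1) (moderated with a trend, 2-sided, prior degrees of freedom 2.67) over 17706 genes with a mean of 1 FPKM or more, with Benjamini-Hochberg adjustment over all of them. Fold changes on this scale understate low genes. No batch is labelled. Read depth is unknown, so no counting intervals could be given; steps between low values put reads per FPKM at 1.41 and 1.04 times that of wild-type replicate 1 in wild-type replicates 2 and 3, and 1.23 and 1.36 times in mutant replicates 6 and 7, with the others unsettled.

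In each family the member with the highest wild-type mean and that with the smallest p are given in full, and in each list the 2 with the smallest p. AT2G30620, HTB11 and AT5G02570 were added after their values were seen. Shares and correlations are descriptions. Gene starts, symbols and sequences came from RefSeq, assembly TAIR10.1, by gene code. On simulated data (5 runs over 17706 genes, 200 changed) 77.6% of changes of 1 log2 unit and 93.2% of changes of 2 were recovered, with 6.48% false calls. The simulated noise was independent between genes, unlike the shared variation between these libraries, and changes under 1 log2 unit were not simulated. These rates therefore do not describe the test for differences as small as those of the core histone genes. Alternatives were pseudocounts, filters, scalings, moderation, array weights and leaving out each library. Plots used matplotlib 3.10.9 in Python 3.11.15.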

Additional observations from a re-analysis of the deposited data

Results flagged for a closer look

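Over 82 groups of 4 libraries (41 histone genes in each genotype) 4 held a library that stood apart by Dixon's criterion, and over 20 groups of shares 3 did; chance alone meets the criterion in about 1 of 20 groups. Wild-type replicate 3 held 5 of these. It had the highest wild-type value of HIS1-3 (8.45 FPKM, next 2.52), of the HIS1-3 share of H1 (1.80%, next 0.534%) and of the H3.3 share of H3 (46.2%, next 43.6%). It had the lowest wild-type value of the H3.1 gene AT3G27360 (157 FPKM, next 190.5) and of the H2A.W gene HTA6 (338 FPKM, next 435). Wild-type replicate 4 had the highest wild-type share of canonical H2A in all H2A (37.2%, next 35.2%). Mutant replicate 8 listed the H2B gene AT5G02570 at 0, where the next mutant value was 1.33 FPKM.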

How the results depend on the processing

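No paired analysis was possible because the genotypes share no replicate number. Over all genes, 24 higher and 9 lower calls became 7 and 5 without a filter, 14 and 5 under TPM rescaling, 1265 and 1058 with array weights, and 0 to 79 and 0 to 25 on leaving out 1 library. Of the histone genes, 1 higher (HIS1-3, log2 fold change 1.93, limma adjusted p = 0.00792) and 8 lower were called with array weights (AT1G07820, HIS4, AT3G45930, AT5G59690, AT1G09200, AT5G65360, HTA7 and HTA11), which gave wild-type replicate 2 a weight of 4.55 and mutant replicate 7 one of 4.38, the others 0.29 to 0.96. Leaving out 1 library gave 0 to 1 higher calls, the 1 being HIS1-3 without wild-type replicate 3. Log2 fold changes near 0 changed sign: AT1G07660 (0.0039) and HTB4 (0.00060) under TPM rescaling, AT1G07660 (0.014) and HTA2 (0.0061) under quantile scaling, AT2G28720 (-0.014) and AT1G06760 (-0.038) with array weights. On leaving out 1 library, AT1G07660 ran from -0.071 to 0.039, HTA2 from -0.11 to 0.091, HTB1 from -0.15 to 0.040, HTB4 from -0.062 to 0.036, HTB9 from -0.19 to 0.020, RAT5 from -0.0017 to 0.30 and AT2G28720 from -0.051 to 0.13. Class medians kept their signs under every alternative run, and moved furthest with array weights (-0.25 for replication-type genes, -0.023 for variants). The cause of these changes was not tested. Unknown depth limits the genes under 15 FPKM most.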
